A study of Mus musculus with 9 samples.

Results

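Choroid plexus and meningeal genes are described here as 10 genes that mark the tissues at the edge of the embryonic cerebral cortex. They were chosen by name as known markers of these tissues and are 10 of the 23201 named genes in the deposited tables. Ttr, Folr1, Kcnj13 and Clic6 stand for the choroid plexus, and Col1a1, Col1a2, Col3a1, Foxc1, Lum and Dcn for the meninges. Each gene is represented by its RefSeq transcript with the highest mean RPKM (reads per kilobase of transcript per 1e6 reads) over the 9 libraries, out of 14 transcripts in all. Folr1 has 4 of these transcripts, Dcn has 2 and the others have 1 each.

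RNA without ribosomal RNA was sequenced from the cerebral cortex of mouse embryos at E13.5 on a mixed C57BL/6, C57BL/6J and CBA background, and the series asks what loss of the nuclear RNA-binding protein Sfpq does to transcription. The groups were 3 libraries of homozygous Sfpq knockout cortex (labelled sfpq_homo_KO), 3 of heterozygous cortex (labelled sfpq_hetero_KO) and 3 of control cortex. Titles and genotype tags give these groups, while a protocol text in the labels writes Sfpq+/- for both mutant groups. No source used here names the Sfpq allele, a Cre driver or the genotype of the control embryos, and whether Sfpq was lost in the choroid plexus and meninges as well as in the cortex is not stated. Sfpq itself was at 26.1, 28.6 and 27.6 RPKM in homozygous libraries, 185, 163 and 169 RPKM in heterozygous libraries and 184, 202 and 218 RPKM in control libraries. Its difference of homozygous against control cortex was -2.85 on the log2 scale (limma adjusted p = 1.22e-09), and the heterozygous and control libraries overlapped.

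The choroid plexus is a folded secretory epithelium that grows into the ventricles from the dorsal midline of the brain, next to the cortical hem, and makes cerebrospinal fluid. The meninges are sheets of fibroblasts that wrap the brain, produce collagens and small proteoglycans, lay down part of the basement membrane at the pial surface and send signals to the cortex beneath. Both border the developing cortex, and their genes were chosen to describe how much of these borders each dissection held. In bulk RNA, fewer cells of a type and less RNA per cell cannot be told apart.

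The stretch of 250 bases before the transcription start is shown for the 4 genes that have one in the RefSeq promoter table used (build GRCm38.p6), because Col1a2, Col3a1 and Foxc1 varied together from library to library and Kcnj13 varied with Ttr. Capitals mark the motifs searched on both strands, TATAAA and CCAAT, the last of which reads as ATTGG where it lies on the other strand. Each sequence runs 5′ to 3′ toward the start. Kcnj13 lies at chr1:87394730-87394979 (minus strand), Col1a2 at chr6:4505368-4505617 (plus strand), Col3a1 at chr1:45311288-45311537 (plus strand) and Foxc1 at chr13:31806396-31806645 (plus strand).
Kcnj13: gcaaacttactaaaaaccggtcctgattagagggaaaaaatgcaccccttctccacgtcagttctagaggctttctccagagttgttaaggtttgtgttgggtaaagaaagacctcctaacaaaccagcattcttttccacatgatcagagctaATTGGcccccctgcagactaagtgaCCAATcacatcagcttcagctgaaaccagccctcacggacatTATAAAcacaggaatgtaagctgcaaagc
Col1a2: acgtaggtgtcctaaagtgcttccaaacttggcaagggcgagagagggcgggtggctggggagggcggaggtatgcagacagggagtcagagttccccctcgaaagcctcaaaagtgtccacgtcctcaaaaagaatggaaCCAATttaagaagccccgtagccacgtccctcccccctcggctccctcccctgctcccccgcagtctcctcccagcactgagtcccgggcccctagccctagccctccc
Col3a1: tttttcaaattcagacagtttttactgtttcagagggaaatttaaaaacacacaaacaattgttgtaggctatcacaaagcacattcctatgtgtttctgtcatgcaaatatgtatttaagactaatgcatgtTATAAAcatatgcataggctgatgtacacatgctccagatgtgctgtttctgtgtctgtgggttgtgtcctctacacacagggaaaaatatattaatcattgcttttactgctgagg
Foxc1: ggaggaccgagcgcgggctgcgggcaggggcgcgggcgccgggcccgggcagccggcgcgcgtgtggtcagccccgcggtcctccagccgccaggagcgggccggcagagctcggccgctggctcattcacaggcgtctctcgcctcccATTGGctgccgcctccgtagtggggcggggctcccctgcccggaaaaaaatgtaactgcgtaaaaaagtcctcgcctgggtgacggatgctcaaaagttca

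Kcnj13 held CCAAT at 96 bases (reverse) and 71 bases (forward) before its start and TATAAA at 29 bases. Col1a2 held CCAAT at 109 bases and Foxc1 at 101 bases (reverse), while Col3a1 held TATAAA at 117 bases and no CCAAT. The same window holds CCAAT in 33.8% and TATAAA in 12.4% of the 32851 promoters of the table. None of these motifs was shared by all 4 genes, and the matches describe letters only.

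The levels of the 10 genes spanned a wide range. Per length, Ttr was the highest at 446 RPKM on average over the 9 libraries, above 99.2% of the 12159 genes tested, and Col3a1 followed at 86.5 RPKM. Dcn, Col1a2 and Lum averaged 18.0, 17.8 and 15.4 RPKM, with ranges over the libraries that overlapped. Within each library Lum was below both Dcn and Col1a2, in 9 of 9. Clic6, Foxc1, Folr1 and Col1a1 averaged 5.90, 5.51, 5.13 and 4.94 RPKM, again with overlapping ranges, and Kcnj13 was the lowest at 1.097 RPKM. All 10 passed the filter on low values (a mean of at least 0.5 RPKM). Kcnj13 rests on the fewest reads, an estimated 182 to 344 per library. Ttr, with 74819 to 119389, and Col3a1, with 66978 to 109981, rest on the most, in ranges that overlapped.

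None of the 10 genes was called between genotypes. In homozygous against control cortex 0 of the 10 were called by limma (adjusted p under 0.05 over all genes tested), where 34.3% of all genes tested were called, 14.4% higher and 19.9% lower in homozygous cortex. The count was also 0 in homozygous against heterozygous cortex, where 32.8% of all genes were called, and 0 in heterozygous against control cortex, where 0% were. At an unadjusted limma p under 0.05 the counts were again 0 of 10 in each of the 3 comparisons, against 43.6% of all genes in homozygous against control, 42.6% in homozygous against heterozygous and 5.75% in heterozygous against control cortex. In no comparison were the libraries of one genotype all above or all below those of the other for any of the 10, whereas all homozygous libraries lay on one side of all control libraries for 46.2% of all genes, and the same held for 11.1% (3.54% higher, 7.54% lower) in heterozygous against control and 46.7% in homozygous against heterozygous cortex. With quantile normalization the called genes split into 2568 higher and 2167 lower in homozygous than in control cortex, against 1747 and 2423 without it, and the 10 genes stayed at 0 calls.

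Ttr encodes transthyretin, the carrier of thyroid hormone and retinol that the choroid plexus secretes into cerebrospinal fluid. It was at 372, 455 and 453 RPKM in homozygous, 366, 488 and 521 RPKM in heterozygous and 371, 399.9 and 587 RPKM in control libraries. The lowest library of each genotype was the one numbered 1, and these 3 lay close together. The difference of homozygous against control cortex was -0.06 on the log2 scale (95% interval -0.44 to 0.31, limma adjusted p = 0.817), which spans 0.739-fold to 1.24-fold.

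Folr1 encodes a folate receptor that takes up folate at the choroid plexus. Its levels were 4.98, 5.14 and 4.81 RPKM in homozygous, 4.63, 6.07 and 5.29 RPKM in heterozygous and 4.41, 4.62 and 6.202 RPKM in control libraries. The homozygous libraries lay within the range of the control libraries. Its 95% interval for homozygous against control cortex, 0.825-fold to 1.19-fold, was the narrowest of the 10.

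Kcnj13 encodes an inwardly rectifying potassium channel of epithelia. Its libraries read 0.847, 1.06 and 1.08 RPKM in homozygous, 0.855, 1.405 and 1.23 RPKM in heterozygous and 0.923, 0.893 and 1.58 RPKM in control cortex. The genotypes overlapped, and control library 3 stood above all others. Clic6, a member of the intracellular chloride channel family, had 4.74, 6.11 and 6.00 RPKM in homozygous, 5.67, 6.39 and 5.84 RPKM in heterozygous and 4.84, 5.93 and 7.61 RPKM in control libraries. Again control library 3 was the highest of the 9 and homozygous library 1 the lowest. Clic6 had the smallest limma adjusted p of the 10 in homozygous against control cortex, 0.614, with a difference of -0.10 on the log2 scale (95% interval -0.41 to 0.20).

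**Figure D1:**
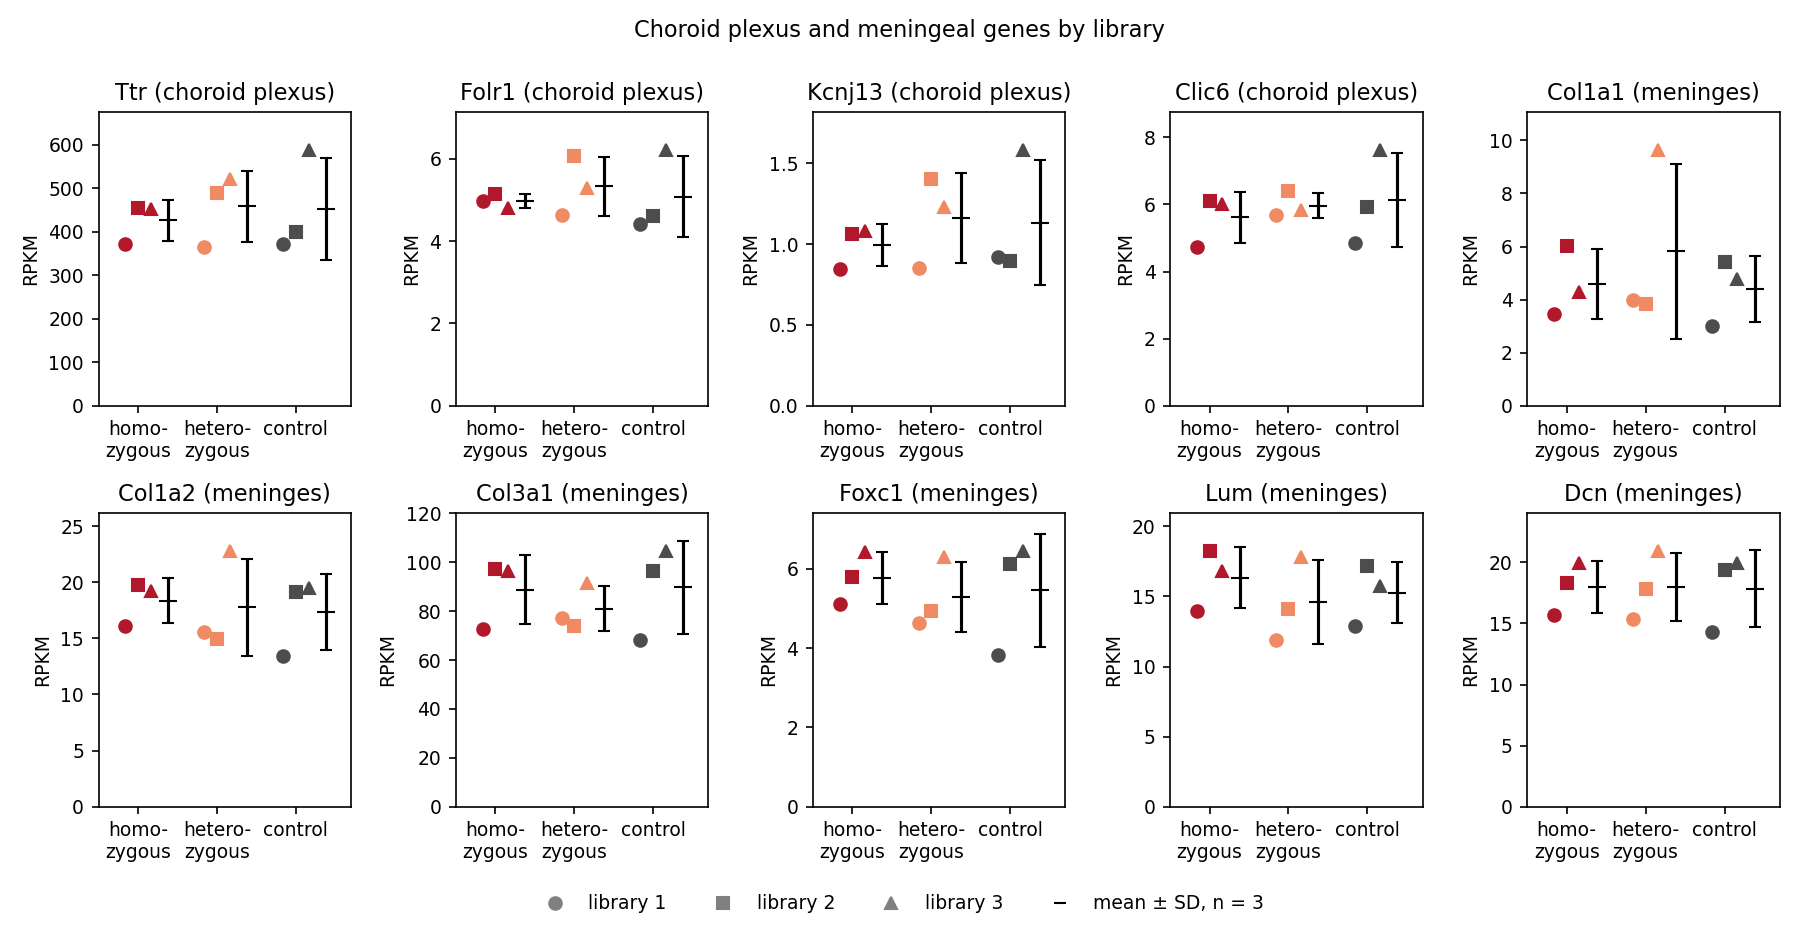
RPKM (vertical axes, starting at 0) of the 10 genes in each of the 9 libraries, grouped by genotype, with marker shapes for library numbers 1 to 3 and bars for the mean ± SD (n = 3). The genotypes overlap in every panel, and control library 3 is the top point for Ttr, Folr1, Kcnj13 and Clic6.

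Col1a1 and Col1a2 encode the chains of type I collagen, the main fibrous collagen of connective tissue. Col1a1 was at 3.47, 6.03 and 4.27 RPKM in homozygous, 4.003, 3.84 and 9.62 RPKM in heterozygous and 3.02, 5.41 and 4.78 RPKM in control libraries. Heterozygous library 3 alone was far above the rest. Its log2 difference was 0.06 in homozygous against control cortex (95% interval -0.62 to 0.74) and 0.28 in heterozygous against control cortex (95% interval -0.40 to 0.96), the widest intervals of the 10, and leaving out heterozygous library 3 turned the second difference to -0.12.

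Col1a2 had 16.1, 19.8 and 19.2 RPKM in homozygous, 15.6, 15.0 and 22.7 RPKM in heterozygous and 13.46, 19.1 and 19.5 RPKM in control libraries. The same heterozygous library was the highest, by a smaller margin than for Col1a1. The ratio of Col1a1 to Col1a2 was 0.216 to 0.305 in homozygous, 0.256 to 0.423 in heterozygous and 0.225 to 0.283 in control libraries, with the top value in heterozygous library 3.

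Col3a1, the chain of type III collagen that forms fibres with type I, was at 72.6, 97.3 and 96.6 RPKM in homozygous, 77.4, 74.0 and 91.4 RPKM in heterozygous and 68.4, 96.4 and 105 RPKM in control libraries. Control library 1 was the lowest and control library 3 the highest. Foxc1 encodes a forkhead transcription factor needed for the meninges to form. It had 5.11, 5.81 and 6.43 RPKM in homozygous, 4.64, 4.94 and 6.30 RPKM in heterozygous and 3.83, 6.12 and 6.44 RPKM in control libraries. The control libraries held both the lowest and the highest value, and the mutant libraries lay between them.

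Lum and Dcn encode lumican and decorin, small leucine-rich proteoglycans that bind collagen fibrils. Lum was at 14.0, 18.2 and 16.8 RPKM in homozygous, 11.9, 14.1 and 17.8 RPKM in heterozygous and 12.9, 17.2 and 15.7 RPKM in control libraries. Dcn was at 15.7, 18.3 and 20.0 RPKM in homozygous, 15.4, 17.8 and 20.9 RPKM in heterozygous and 14.3, 19.4 and 19.9 RPKM in control libraries. In both, library 1 was the lowest of its genotype. The 6 meningeal genes had log2 differences of homozygous against control cortex with a median of 0.07 and the 4 choroid plexus genes a median of -0.08, beside -0.01 for all genes tested.

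**Figure D2:**
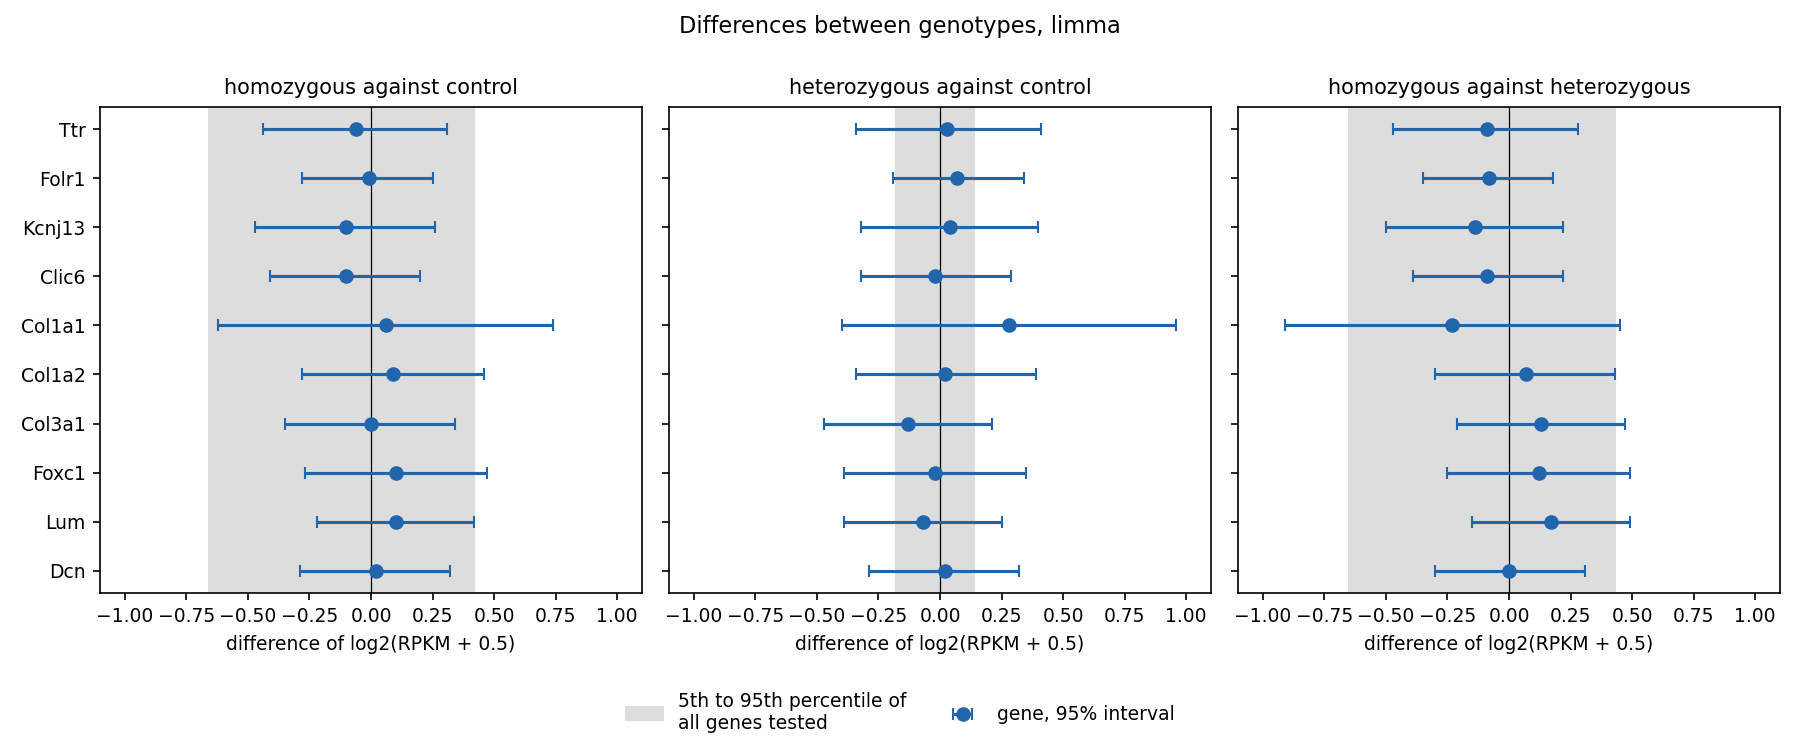
Difference of log2(RPKM + 0.5) of each of the 10 genes (horizontal axes) in 3 comparisons, with 95% intervals from limma, over a grey band from the 5th to the 95th percentile of all 12159 genes tested. Every interval spans 0, and in homozygous against control cortex every gene lies between -0.10 and 0.10.

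Col1a1 had the largest difference in size in both comparisons that hold the heterozygous libraries, 0.28 against control cortex and -0.23 for homozygous against heterozygous cortex. The other 9 lay between -0.13 and 0.07 in heterozygous against control cortex, and between -0.14 and 0.17 in homozygous against heterozygous cortex. Two-sided exact permutation tests of the RPKM values gave p of 0.4 or more for each gene and comparison, where the smallest p that 3 against 3 libraries allow is 0.1. A limma adjusted p that misses the threshold does not show equal levels. For the 10 genes the 95% intervals of homozygous against control cortex ran at most from 0.649-fold to 1.67-fold (Col1a1).

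Variation within a genotype was larger for these genes than for most. Their SD within a genotype on the log2 scale had a median of 0.249, against 0.0983 for all genes tested. Col1a1 had 0.504, above 99.7% of all genes tested, and Folr1 had 0.176, above 89.0%. The ratio of the highest to the lowest library was 3.18 for Col1a1 and between 1.41 (Folr1) and 1.87 (Kcnj13) for the other 9.

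To describe each dissection, log2 levels were averaged over a set of genes and given relative to the mean of the 9 libraries. The 4 choroid plexus genes stood at -0.19, 0.02 and 0 in homozygous, -0.16, 0.19 and 0.10 in heterozygous and -0.21, -0.11 and 0.36 in control libraries. Library 1 of each genotype was low, and control library 3 was the highest, 1.48-fold above control library 1. The 6 meningeal genes stood at -0.19, 0.18 and 0.12 in homozygous, -0.21, -0.16 and 0.34 in heterozygous and -0.38, 0.15 and 0.15 in control libraries. Here heterozygous library 3 was the highest, 1.65-fold above control library 1. The span of all genes tested was 0.13 on the log2 scale, against 0.57 for the choroid plexus and 0.72 for the meningeal genes.

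**Figure D3:**
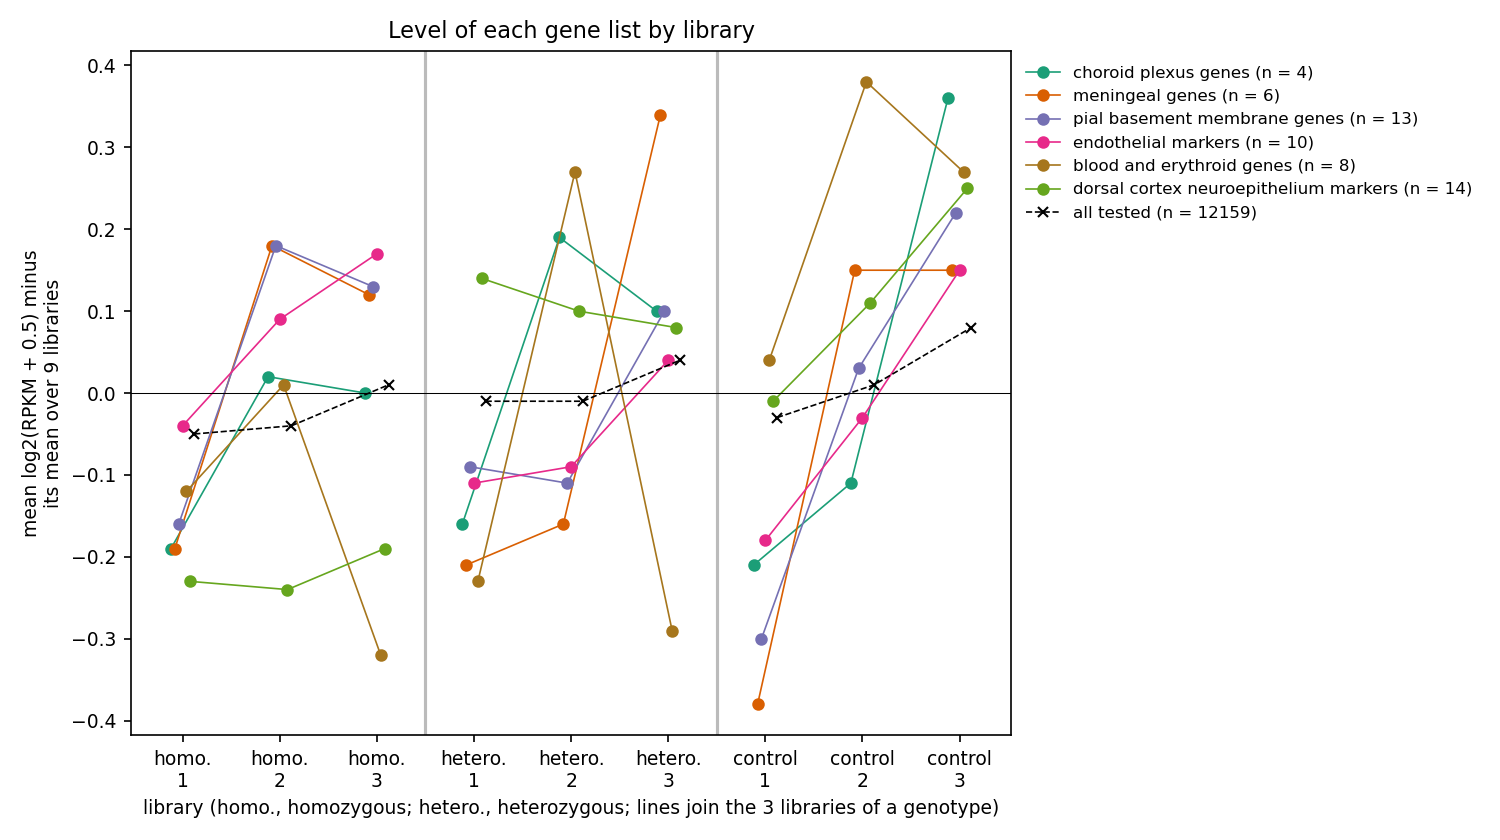
Mean log2(RPKM + 0.5) of each gene list relative to its mean over the 9 libraries (vertical axis), by library (horizontal axis). The choroid plexus genes peak in control library 3 at 0.36, the meningeal genes in heterozygous library 3 at 0.34, both are low in library 1 of each genotype, and the dorsal cortex markers are low in all 3 homozygous libraries.

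Single genes followed the same libraries. Control library 3 was the highest of the 9 for 4 of the 4 choroid plexus genes and for 2 of the 6 meningeal genes. It was also the highest for 24.2% of all genes tested, for 7 of 14 dorsal cortex markers and for 7 of 14 genes of the cortical hem. The levels of the dorsal cortex markers (0.25), the cortical hem genes (0.20) and all genes tested (0.08) were likewise highest in this library. Its high choroid plexus level is thus not particular to genes of the cortical edge. Control library 1 was the lowest for 5 of the 6 meningeal genes and for 17.8% of all genes tested. Heterozygous library 2 separated both tissues, with a level of 0.19 for the choroid plexus genes and -0.16 for the meningeal genes. Estimated depth lay between 169.5 and 205 M reads (M, 1e6) over the 9 libraries, at 171.5 M in control library 3, 176 M in control library 1 and 189.5 M in heterozygous library 3. The part of depth in these levels was not tested.

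The genes of each tissue rose and fell together over the 9 libraries. Of the 45 pairs of genes, Pearson's r of log2(RPKM + 0.5) had a median of 0.839 in the 6 pairs within the choroid plexus, 0.858 in the 15 pairs within the meninges and 0.458 in the 24 pairs across both. After Benjamini-Hochberg adjustment over the 45 pairs, the exact permutation p of r was under 0.05 in 6, 13 and 2 of these pairs. Without the pair of libraries farthest from the median of the first gene, the unadjusted exact p was under 0.05 in 2, 9 and 4 pairs, and the median r was 0.687 within the choroid plexus, 0.838 within the meninges and 0.617 across. The choroid plexus pairs thus stood little above the pairs across both tissues once those libraries, control library 3 among them, were left out. After the genotype means were subtracted the median r was 0.841 within the choroid plexus, 0.902 within the meninges and 0.534 across. Fewer pairs passed by rank. The adjusted exact p of Spearman's rho was under 0.05 only for Ttr with Folr1 and with Kcnj13, Col1a1 with Col1a2 and with Lum, and Foxc1 with Dcn (0.0406 each). By this measure no pair across both tissues passed.

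The closest pair in the choroid plexus was Ttr and Kcnj13, with r = 0.949 (exact permutation p = 2.56e-04, adjusted 0.00577) and Spearman's rho = 0.883 (exact p = 0.00308, adjusted 0.0406) over n = 9 libraries. Without control library 3 and heterozygous library 1, r was 0.895 (exact p = 0.00933). In the meninges it was Foxc1 and Dcn, a transcription factor and a matrix proteoglycan, with r = 0.942 (exact permutation p = 2.04e-04, adjusted 0.00577) and rho = 0.917 (exact p = 0.00131, adjusted 0.0406). Without control library 1 and heterozygous library 1, that r was 0.859 (exact p = 0.00992).

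The chains of type I collagen gave r = 0.890 (exact permutation p = 7.39e-04, adjusted 0.00850) and rho = 0.90 (exact p = 0.00203, adjusted 0.0406), and r = 0.871 without heterozygous library 3 and homozygous library 2 (exact p = 0.0109). The pair of Folr1 and Clic6 was the loosest within the choroid plexus. Its r was 0.738 (exact permutation p = 0.0217, adjusted 0.0466) with rho = 0.667 (exact p = 0.0589, adjusted 0.115), and r fell to 0.341 (exact p = 0.433) without control library 3 and heterozygous library 2, so this relation rests on those libraries. The relations across both tissues that passed the adjustment were Ttr with Dcn, at r = 0.783 (exact permutation p = 0.0155, adjusted 0.0368), and Clic6 with Col3a1, at r = 0.727 (exact permutation p = 0.0175, adjusted 0.0395). Their Spearman's rho was 0.750 (exact p = 0.0255, adjusted 0.0717) and 0.733 (exact p = 0.0311, adjusted 0.0778). Without the 2 farthest libraries, r was 0.760 for Ttr with Dcn (exact p = 0.0482) and 0.540 for Clic6 with Col3a1 (exact p = 0.202).

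**Figure D4:**
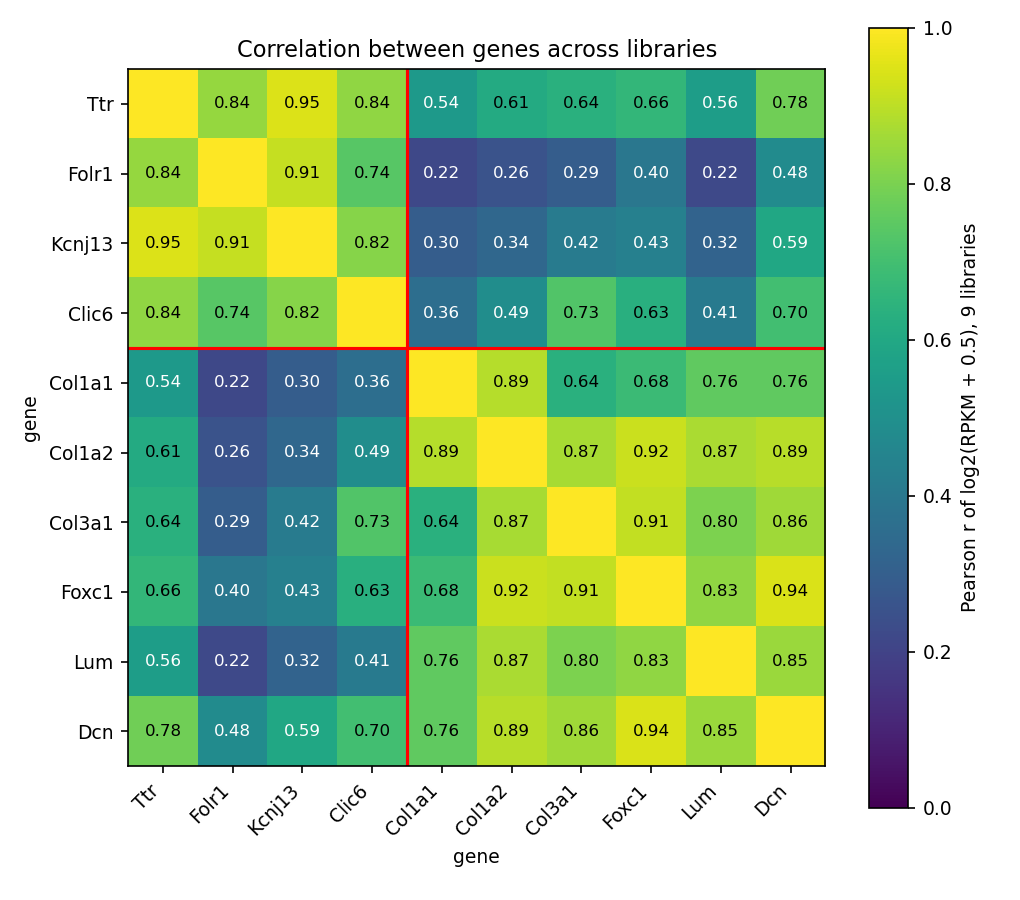
Pearson's r of log2(RPKM + 0.5) over the 9 libraries for each pair of the 10 genes, both axes listing genes and red lines dividing choroid plexus from meninges. Values within a tissue run between 0.64 and 0.95, and values across the tissues between 0.22 and 0.78.

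Among 10925 genes averaging 1 RPKM or more, the 8 most like Ttr by r over the 9 libraries were Gjb6 (0.970), Tab2, 9930021J03Rik, Kcnj13, 1190007I07Rik, Wrap73, Abhd3 and Resf1 (0.938). Gjb6, a gap junction gene counted here with the meningeal fibroblasts, was at 1.11, 1.29 and 1.36 RPKM in homozygous, 1.02, 1.396 and 1.56 RPKM in heterozygous and 1.14, 1.26 and 1.86 RPKM in control libraries. Kcnj13 ranked 4th in likeness to Ttr, Folr1 102nd and Clic6 120th, while the median r of all genes ranked was 0.215. The 8 most like Col1a1 were Mlxip (0.958), Srgap3, Col8a2, Fbn2, Kat6a, Cabin1, Cdh11 and Phka2 (0.908), of which Col8a2 encodes a short-chain collagen and Fbn2 a fibrillin of microfibrils. Col1a2 ranked 18th. With 9 libraries and this many genes such ranks describe these libraries only.

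Other genes of the choroid plexus epithelium did not all share the pattern of the 4. Of 30 listed, 18 passed the filter on low values. In homozygous against control cortex 4 of these rose and 0 fell by limma, 22.2% called against 34.3% of all genes tested. By direction, 14.4% of all genes tested were called higher and 19.9% lower. Krt8, a keratin of simple epithelia, was at 3.88, 3.10 and 2.58 RPKM in homozygous, 1.26, 1.67 and 1.38 RPKM in heterozygous and 0.802, 1.22 and 1.39 RPKM in control libraries. All homozygous libraries lay above all others, with a log2 difference of 1.17 ± 0.16 against control cortex (SE, limma adjusted p = 1.77e-04).

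Foxj1, the transcription factor of motile cilia, was at 4.10, 3.82 and 4.52 RPKM in homozygous, 1.92, 2.32 and 2.26 RPKM in heterozygous and 1.76, 1.82 and 2.49 RPKM in control libraries. It rose by 0.89 ± 0.11 on the log2 scale (SE, limma adjusted p = 1.39e-04). Cldn3, a tight junction claudin, had 0.933, 0.790 and 0.934 RPKM in homozygous, 0.363, 0.408 and 0.558 RPKM in heterozygous and 0.229, 0.323 and 0.428 RPKM in control libraries, with a log2 difference of 0.75 ± 0.11 (SE, limma adjusted p = 3.21e-04). Cldn3 averaged 0.443 RPKM in heterozygous and 0.326 RPKM in control libraries, so it passed the filter at 0.5 RPKM only through the homozygous libraries. Its place among the 4 risers depends on that filter. Otx2, a homeobox gene of the dorsal midline and choroid plexus, had 8.14, 9.28 and 8.47 RPKM in homozygous, 4.04, 5.16 and 6.73 RPKM in heterozygous and 6.09, 5.76 and 5.77 RPKM in control libraries, with a log2 difference of 0.52 ± 0.13 (SE, limma adjusted p = 0.0117). These 4 were also called against heterozygous cortex. None of the 4 is found in the choroid plexus alone, and Otx2 and Cldn3 are named after their values were seen.

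The other 14 genes of that list gave no call. Aqp1, a water channel, was at 1.44, 1.62 and 1.98 RPKM in homozygous, 1.55, 1.97 and 2.20 RPKM in heterozygous and 1.16, 1.48 and 2.31 RPKM in control libraries. Enpp2, which encodes the secreted enzyme autotaxin, was at 4.85, 5.53 and 7.43 RPKM in homozygous, 4.95, 4.94 and 5.31 RPKM in heterozygous and 3.89, 4.64 and 6.23 RPKM in control libraries. For both, control library 3 was the highest of the controls and control library 1 the lowest, and the genotypes overlapped. Both genes are named after their values were seen, and not all of the list shared this order. Calml4 shared it, while Cab39l and Wfdc2 were lowest of the controls in control library 3, at 10.4 and 3.71 RPKM. Over the 9 libraries, control library 3 was the highest for 6 of the 18 genes, 33.3% against 24.2% of all genes tested. Control library 1 was the lowest for 9 of the 18, 50% against 17.8%. The median log2 difference of the 18 genes was 0.07 in homozygous against control cortex. In heterozygous against control cortex 0 of 18 were called by limma, and 0 had an unadjusted p under 0.05.

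Genes of the cortical hem, the dorsal midline source of Wnt and Bmp signals beside the choroid plexus, had 1 higher and 1 lower of 14 tested in homozygous against control cortex, 14.3% against 34.3% of all genes tested. Dkk3, a member of the Dickkopf family of secreted proteins, was at 4.89, 5.04 and 5.65 RPKM in homozygous, 8.58, 8.21 and 7.46 RPKM in heterozygous and 7.18, 8.14 and 9.42 RPKM in control libraries. It fell by 0.61 on the log2 scale (SE 0.10, limma adjusted p = 5.76e-04), and its homozygous libraries were all below the control libraries. Rspo3, a secreted enhancer of Wnt signalling, was at 21.9, 22.5 and 20.7 RPKM in homozygous, 17.5, 20.3 and 18.8 RPKM in heterozygous and 15.3, 18.0 and 19.8 RPKM in control libraries. Its log2 difference against control cortex was 0.29 ± 0.09 (SE, limma adjusted p = 0.0234). The adjusted p was 0.0736 when control library 1 was left out, 0.0536 for control library 2, 0.0638 for homozygous library 1 and 0.0687 for homozygous library 2, and 0.0538 with no filter on low values. Without control library 1, 4 genes of the list were called.

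**Figure D5:**
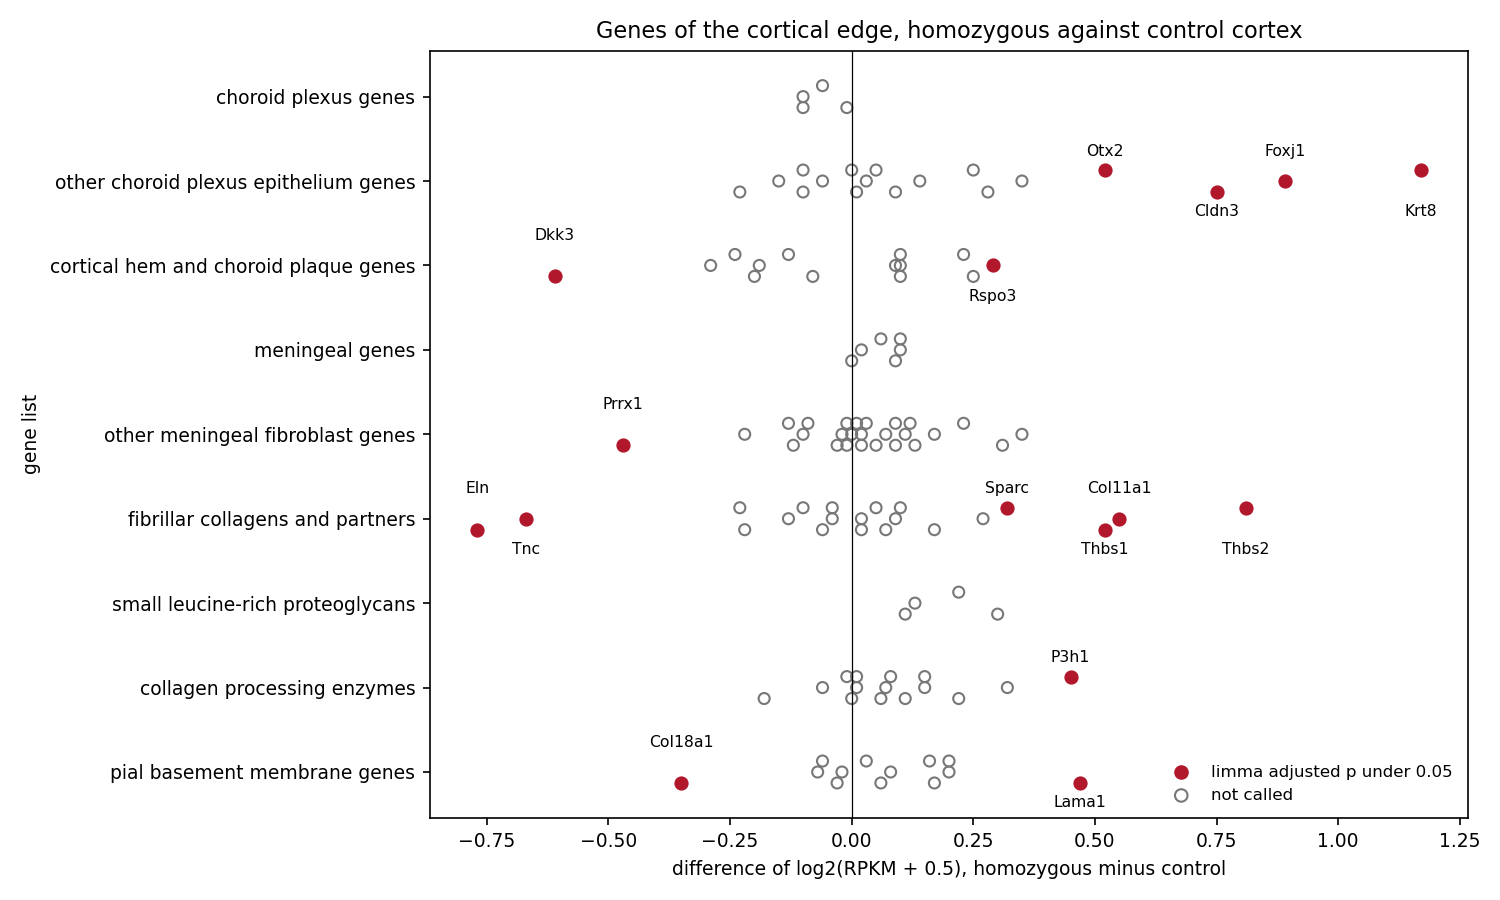
Difference of log2(RPKM + 0.5), homozygous minus control (horizontal axis), of each tested gene in 9 lists (rows), with filled points for a limma adjusted p under 0.05. The choroid plexus and meningeal genes described first hold no filled point and lie close to 0, while called genes of the other lists stand on both sides of 0.

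Other meningeal fibroblast genes gave 0 higher and 1 lower of 26 tested in homozygous against control cortex, 3.85% against 34.3% of all genes tested. The one that fell was Prrx1, a homeobox gene of mesenchyme, at 1.98, 2.12 and 1.92 RPKM in homozygous, 2.55, 2.62 and 2.92 RPKM in heterozygous and 2.86, 3.27 and 2.77 RPKM in control libraries (log2 difference -0.47, SE 0.08, limma adjusted p = 0.00124). The list's most abundant genes were not called. Igfbp2, a binding protein of insulin-like growth factors, was at 132, 120.1 and 121 RPKM in homozygous, 127, 125 and 124 RPKM in heterozygous and 128, 132 and 149 RPKM in control libraries. Cldn11, a claudin of the arachnoid barrier, was at 19.9, 19.0 and 23.4 RPKM in homozygous, 16.2, 19.8 and 20.7 RPKM in heterozygous and 16.1, 21.8 and 26.8 RPKM in control libraries. For both, the homozygous and control libraries overlapped and control library 3 was the highest. Bmp5, a secreted signal of the Bmp family, was just outside the threshold (log2 difference 0.31, limma adjusted p = 0.0504) and passed it without control library 3 (0.0113) or heterozygous library 1 (0.0499), so that 2 genes of the list were called without either, and with quantile normalization (0.0064).

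Matrix genes that work with the type I and type III collagens split by gene. Of 21 tested fibrillar collagens and partners, 4 rose and 2 fell in homozygous against control cortex, 28.6% against 34.3% of all genes tested. Leaving out single libraries gave counts of 4 when any of control library 1 and homozygous libraries 1 and 3 was left out, and up to 8 for homozygous library 2. Col11a1, a chain of the minor fibrillar collagen XI, was at 8.96, 9.71 and 9.82 RPKM in homozygous, 6.13, 5.41 and 7.53 RPKM in heterozygous and 5.35, 6.50 and 7.31 RPKM in control libraries. All homozygous libraries were above all others (log2 difference 0.55 ± 0.12 against control, SE, limma adjusted p = 0.00506). Thbs1, an adhesive matrix glycoprotein, had 7.13, 6.83 and 7.14 RPKM in homozygous, 4.18, 4.55 and 5.54 RPKM in heterozygous and 4.08, 4.85 and 5.45 RPKM in control libraries (log2 difference 0.52 ± 0.11, limma adjusted p = 0.00383). Both are named after their values were seen.

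Eln, which encodes elastin, was at 0.672, 0.641 and 0.740 RPKM in homozygous, 1.34, 1.26 and 1.48 RPKM in heterozygous and 1.25, 1.51 and 1.82 RPKM in control libraries. Tnc, tenascin C, which radial glia also express, had 1.08, 1.104 and 1.23 RPKM in homozygous, 3.14, 2.68 and 2.76 RPKM in heterozygous and 1.86, 1.73 and 2.86 RPKM in control libraries. In both genes the homozygous libraries lay below all others. The log2 differences against control cortex were -0.77 for Eln (SE 0.10, limma adjusted p = 1.94e-04) and -0.67 for Tnc (SE 0.14, limma adjusted p = 0.00295).

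The other risers of that list were Thbs2, a relative of Thbs1 named after its values were seen, and Sparc, a collagen-binding glycoprotein. Thbs2 was at 1.41, 1.25 and 1.57 RPKM in homozygous, 0.390, 0.355 and 1.35 RPKM in heterozygous and 0.402, 0.711 and 0.683 RPKM in control libraries (log2 difference 0.81 ± 0.24, limma adjusted p = 0.0251). Heterozygous library 3, the highest for Col1a1, was within the homozygous range for Thbs2. Sparc was at 74.1, 69.5 and 82.9 RPKM in homozygous, 56.4, 54.2 and 56.3 RPKM in heterozygous and 51.1, 61.7 and 68.9 RPKM in control libraries (log2 difference 0.32 ± 0.10, limma adjusted p = 0.0236). Thbs2 had an adjusted p of 0.0812 when control library 1 was left out, 0.0598 for homozygous library 1 and 0.0745 for homozygous library 3. For Sparc the adjusted p was 0.0652 when control library 1 was left out, 0.0506 for control library 2, 0.0503 for homozygous library 1 and 0.0912 for homozygous library 3. With no filter on low values neither was called (limma adjusted p = 0.0753 for Thbs2 and 0.0631 for Sparc).

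Of the 4 tested small leucine-rich proteoglycans besides Lum and Dcn (Bgn, Ogn, Ecm2 and Epyc), 0 were called by limma in homozygous against control cortex, against 34.3% of all genes tested. At an unadjusted limma p under 0.05 there was 1 gene, against 43.6% of all genes tested. That gene, Ecm2, was at 0.621, 0.759 and 0.683 RPKM in homozygous, 0.429, 0.618 and 0.567 RPKM in heterozygous and 0.512, 0.470 and 0.585 RPKM in control libraries. Its homozygous libraries lay above the control libraries (log2 difference 0.22 ± 0.09, SE, limma adjusted p = 0.0936), and it was called with quantile normalization (0.0334). Bgn, biglycan, a close relative of decorin, was at 2.34, 3.07 and 2.14 RPKM in homozygous, 2.30, 2.28 and 2.73 RPKM in heterozygous and 2.16, 2.33 and 2.25 RPKM in control libraries. Its genotypes overlapped. Of 15 enzymes and chaperones of collagen processing, 1 rose and 0 fell, 6.67% against 34.3% of all genes tested, and 3 were called without control library 3. That gene, P3h1, a prolyl hydroxylase of collagen chains, was at 4.81, 4.74 and 4.93 RPKM in homozygous, 3.53, 3.09 and 3.86 RPKM in heterozygous and 2.92, 3.45 and 3.90 RPKM in control libraries (log2 difference 0.45 ± 0.10, limma adjusted p = 0.00541).

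Serpinh1, the collagen chaperone Hsp47, had 199, 195 and 208 RPKM in homozygous, 140.3, 154 and 169.8 RPKM in heterozygous and 147, 173 and 199 RPKM in control libraries. It was called against heterozygous cortex (log2 difference 0.38, limma adjusted p = 0.0125) and not against control cortex (0.22, limma adjusted p = 0.103, 0.0166 without control library 3 and 0.0451 with quantile normalization). The call against heterozygous cortex was lost without heterozygous library 1 (adjusted p = 0.0515).

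Basement membrane genes of the pial surface gave 1 higher and 1 lower of 13 tested in homozygous against control cortex, 15.4% against 34.3% of all genes tested. Lama1, a laminin chain, was at 9.07, 11.8 and 11.6 RPKM in homozygous, 7.07, 6.86 and 8.05 RPKM in heterozygous and 5.91, 7.74 and 9.59 RPKM in control libraries (log2 difference 0.47 ± 0.15, limma adjusted p = 0.0296). Col18a1, a collagen of basement membranes, was at 15.2, 18.1 and 17.2 RPKM in homozygous, 19.6, 18.5 and 20.5 RPKM in heterozygous and 18.0, 22.7 and 24.4 RPKM in control libraries (log2 difference -0.35, SE 0.10, limma adjusted p = 0.0215). In both the homozygous and control ranges overlapped. Lama1 had an adjusted p of 0.0923 when control library 1 was left out, 0.0685 for control library 2, 0.0922 for homozygous library 2 and 0.0932 for homozygous library 3, and 0.0501 with only the 2 groups in the fit. Col18a1 had 0.0805 when control library 2 was left out, 0.0761 for control library 3 and 0.0851 for homozygous library 1. With no filter on low values neither was called (limma adjusted p = 0.0791 for Lama1 and 0.0567 for Col18a1). Without control library 2, 0 of the 13 were called. Col4a2, a chain of the network collagen of basement membranes, was at 22.2, 30.2 and 31.9 RPKM in homozygous, 30.8, 24.8 and 26.8 RPKM in heterozygous and 21.3, 28.3 and 33.3 RPKM in control libraries, with no call.

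Markers of other cells that a cortical dissection can hold were summed per library, so that the most abundant genes weigh most. Cldn5 and Slc2a1, averaging 34.5 and 34.8 RPKM, were the largest parts of the endothelial sum. The 10 endothelial markers summed to between 122 and 143 RPKM in homozygous, 112 and 119 RPKM in heterozygous and 108 and 138 RPKM in control libraries, with control library 1 the lowest. The 10 pericyte markers summed to between 21.6 and 23.6 RPKM in homozygous, 18.4 and 23.2 RPKM in heterozygous and 18.2 and 24.9 RPKM in control libraries. Each list had 1 gene called higher in homozygous against control cortex, of 10 and 7 tested, and 0 lower. These shares were 10% and 14.3%, against 34.3% of all genes tested in either direction and 14.4% called higher. The endothelial call, Mfsd2a, was lost when control library 2, homozygous library 1 or homozygous library 3 was left out, and 2 endothelial genes were called when control library 3 was. The pericyte call, Rgs5, was lost when either control library 1 or 2, heterozygous library 2 or 3, or homozygous library 3 was left out, with no filter on low values (limma adjusted p = 0.0746) and with only the 2 groups in the fit (0.0645). The lowest and highest control libraries, 1 and 3, were thus the same as for Col3a1 and Foxc1.

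Erythroid genes, 10 in all, summed to between 1841 and 2254 RPKM in homozygous, 1789 and 2645 RPKM in heterozygous and 2249 and 2879 RPKM in control libraries. Hbb-y, averaging 1342 RPKM, was the largest part of these sums. In homozygous against control cortex 0 of 8 tested were higher and 2 lower, 25% called against 34.3% of all genes tested in either direction and 19.9% called lower. That count was 0 when control library 2 or 3 or homozygous library 3 was left out, 1 without homozygous library 1, 4 without control library 1 and 5 without heterozygous library 2. The 10 microglia and macrophage markers summed to between 26.8 and 35.3 RPKM in homozygous, 21.5 and 27.2 RPKM in heterozygous and 19.7 and 24.7 RPKM in control libraries. Of 9 tested, 4 were higher and 0 lower in homozygous against control cortex, 44.4% called against 34.3% of all genes tested in either direction and 14.4% called higher. Homozygous library 3 was the highest of the 9 libraries for 9 of the 9 tested markers, and for 21.3% of all genes tested. The count was 2 when either control library 1 or homozygous library 3 was left out. In heterozygous against control cortex limma called 0 genes of each list. None of these markers was at 0 in all 9 libraries. The part of blood, vessels and microglia in the choroid plexus and meningeal levels was not tested.

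Markers of the labelled tissue were present in all libraries. All 14 dorsal cortex markers passed the filter, and in homozygous against control cortex 1 rose and 6 fell, 50% against 34.3% of all genes tested. By direction, 14.4% of all genes tested were called higher and 19.9% lower. The level of the 14 markers was between -0.24 and -0.19 in homozygous, 0.08 and 0.14 in heterozygous and -0.01 and 0.25 in control libraries, whereas the choroid plexus and meningeal levels of the genotypes overlapped.

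Adding the choroid plexus level of each library to the fit as a covariate gave 4320 called genes in homozygous against control cortex, and adding the meningeal level gave 4395, against 4170 with neither. In homozygous against heterozygous cortex the counts were 4098 and 4269, against 3992. In heterozygous against control cortex they were 0 and 0 by limma, as without the covariates, where 699 genes had an unadjusted p under 0.05.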

How the data were processed

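RNA was measured in 9 libraries of mouse cerebral cortex at E13.5. Per the labels' protocols, total RNA from a column extraction went through Ribo-Zero, which takes out ribosomal RNA, before stranded libraries were made. The submitters' processing notes name TopHat 1.4.1, CASAVA 1.8.2 and the genome build mm9. The authors deposited 1 RPKM value per RefSeq transcript and library, 30978 in each table, per the file headers. No source used here names the program behind these values or its handling of strand and of reads with several matches, and values of overlapping genes are uncertain. No counts were used. Low values fell mostly on steps of whole reads (64.9% to 68.8% of them within 0.1 of a whole read), too few for a count test, and gave the estimated depths.

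Transcripts were named with RefSeq (30507) and GENCODE M21 (178) tables, and 293 had no name. Each gene was represented by its transcript with the highest mean RPKM. All libraries were fitted together by genotype with limma 3.58.1 in R 4.3.3 (empirical Bayes, trend of variance on the mean) on log2(RPKM + 0.5) for the 12159 genes averaging 0.5 RPKM or more, and calls had a Benjamini-Hochberg adjusted p below 0.05. Differences on this scale understate the change of low genes. The test was tested on simulated data first. Correlations used all 362880 pairings of 9 libraries for exact p (Python 3.11.15, scipy 1.17.1).

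The 10 genes, the 14 other lists (230 of 231 entries of all lists matched) and the tests were chosen with earlier results of these data known. Besides the 10, the text names up to 4 genes per list (the 2 most abundant and the 2 with the smallest p in homozygous against control cortex), the 8 genes most like Ttr and Col1a1, and others where said. Promoter sequences are RefSeq's on GRCm38.p6, which is not the authors' build, and 4 of the 10 genes matched that table. Each library was taken as 1 independent sample, so p-values measure the spread between libraries. Alternatives were other pseudocounts (0.1 and 1), filters (none and 2 RPKM), quantile normalization, the longest transcript, no trend, only the 2 groups compared, a replicate block, covariates and leaving out each library.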

Additional observations from a re-analysis of the deposited data

How the results depend on the processing

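The 10 genes gave 0 calls by limma in each comparison under each of the 18 alternatives run for them (17 for Kcnj13, which a filter at 2 RPKM removes). Called genes in heterozygous against control cortex numbered 1 with only the 2 groups compared and between 0 and 1 with single libraries left out, and the cause was not tested. In homozygous against control cortex they numbered between 3108 and 4120 with single libraries left out. Among recomputed correlations of the 10 genes, 111 kept their side of the threshold, 19 lost and 5 gained it. Library numbers are shared by the genotypes. Deviations of same-numbered libraries correlated between -0.0444 and 0.404, and those of different-numbered libraries between -0.44 and 0.0963. The highest values were 0.404 for control and homozygous library 1 and 0.322 for control and homozygous library 3. In the main fit the numbers were not taken as pairs, and whether same-numbered libraries share a batch was not tested. A replicate block gave 4429 called genes in homozygous against control, 4267 in homozygous against heterozygous and 0 in heterozygous against control cortex, and 0 of the 10 genes. In homozygous against control cortex the block also brought Bmp5 (limma adjusted p = 0.0143), Plod1 (0.0103), Serpinh1 (0.0289) and Hbb-y (0.0134) under the threshold, and with no filter on low values Slc4a1 (0.0702) and Aif1 (0.0573) lost their calls. With quantile normalization homozygous against heterozygous cortex had 2429 higher and 2099 lower genes, against 1771 and 2221 without it. The 3 libraries per genotype limit what differences can be seen.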

Other observations

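Genes of cartilage, bone, muscle and skin were mostly near 0, and 3 of 18 passed the filter on low values. Myf5 and Myod1, transcription factors of skeletal muscle, were at most 0.00271 and 0.0183 RPKM in any library. Keratins of stratified epithelium, chosen after their values were seen, stood out in 1 library. Krt5 was at 0.0807, 0.0180 and 0.0979 RPKM in homozygous, 0.782, 0.0450 and 0.0576 RPKM in heterozygous and 0.0789, 0.00887 and 0.134 RPKM in control libraries. Krt14 was at 0.0372, 0.00679 and 0.00307 RPKM in homozygous, 0.494, 0.0561 and 0.0697 RPKM in heterozygous and 0.0489, 0.0351 and 0.0385 RPKM in control libraries. Heterozygous library 1, the highest for both, was low for the meningeal genes (-0.21). Krt15 was also highest there, at 0.552 RPKM, and its homozygous libraries, at 0.469, 0.223 and 0.392 RPKM, lay above the control libraries, at 0.0856, 0.0395 and 0.0777 RPKM. None of these keratins was tested, since all were below the filter.

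Dct, an enzyme of the melanin pathway that cortical progenitors also express, was at 4.29, 4.96 and 4.22 RPKM in homozygous, 13.004, 14.5 and 16.2 RPKM in heterozygous and 15.5, 15.6 and 19.7 RPKM in control libraries. Its log2 difference of homozygous against control cortex was -1.80 (SE 0.11, limma adjusted p = 3.75e-07), with no overlap. Mitf, the transcription factor of pigment cells, gave -0.10 (limma adjusted p = 0.424), and its genotypes overlapped. Col2a1, the collagen of cartilage and notochord, was at 10.9, 10.96 and 10.1 RPKM in homozygous, 6.82, 5.86 and 6.07 RPKM in heterozygous and 5.55, 6.58 and 7.54 RPKM in control libraries (log2 difference 0.67 ± 0.10, SE, limma adjusted p = 3.74e-04). Alpl, an alkaline phosphatase, fell by 0.78 (SE 0.09, limma adjusted p = 9.36e-05). So the collagen Col2a1 was called higher in homozygous cortex, while Col1a1, Col1a2 and Col3a1 were not called.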
